A study of Mus musculus with 4 samples.

Results

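The genes described here are 9 markers of inhibitory neurons: the peptide precursors Sst, Npy, Cck and Crh, the calcium-binding proteins Pvalb and Calb2, the GABA-synthesising enzymes Gad1 and Gad2, and the vesicular GABA transporter Slc32a1. They were picked by name, whatever they measured, and every probe carrying one of these names, an older symbol or a matching transcript accession was taken. The arrays carried 14 such probes for 8 of the 9 genes. All 8 passed the filter on dim signal, out of 19117 genes tested from 27670 gene names. Crh had no matching probe and was not analysed here.

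The study asked how the brain transcriptome responds to permanent middle cerebral artery occlusion (PMCAO), in which a filament closes the artery that supplies much of the forebrain. The 4 RNA groups hybridised were PMCAO at 6 h, sham at 6 h, PMCAO at 24 h and sham at 24 h. All came from male C57BL/6J mice aged 8 to 12 weeks, with 3 mice per group per the design text, and all had saline injected into a cerebral ventricle. Sham mice had the neck surgery with no filament. The samples are labelled as brain. According to the design text, RNA of the contralateral hemisphere went on the arrays.

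Each of the 4 two-colour arrays paired a PMCAO sample with the sham sample of the same time. At each time sample 1 had PMCAO in Cy5 and sham in Cy3, and sample 2 had the dyes exchanged, so the sample number and the dye orientation cannot be told apart. The labels do not say how the 3 mice were combined or whether samples 1 and 2 hold separate RNA, so the p-values below measure only the spread between arrays, which may be technical. The share of spots well above background ranged over the arrays from 66.3% to 73.7% for PMCAO RNA and from 67.3% to 73.6% for sham RNA. No spot of these genes was saturated. In this bulk tissue, fewer cells of a type and less RNA per cell cannot be told apart. All 9 pan-neuronal markers measured, such as Rbfox3, Snap25 and Map2, were well above background in every channel.

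Inhibitory neurons make GABA from glutamate with the 2 glutamate decarboxylases and load it into synaptic vesicles through the transporter encoded by Slc32a1. Cortical and hippocampal interneurons are sorted into classes by what else they make: parvalbumin in fast-spiking basket and chandelier cells, somatostatin in dendrite-targeting cells, calretinin (Calb2), neuropeptide Y and cholecystokinin in others. Striatal projection neurons are also GABAergic, and many rodent cortical excitatory neurons make Cck as well, so these transcripts are not exclusive to interneurons.

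The probes are 60-base oligonucleotides with positions given by the files on the mouse build mm7. The Npy probe is shown because its sequence includes the end of the mature peptide: the capitals mark the glycine, lysine and arginine codons at which the precursor is cut and amidated. Its 60 bases span 3763 bases of the genome, chr6:49783794-49787556, and so cross an intron.
Npy probe: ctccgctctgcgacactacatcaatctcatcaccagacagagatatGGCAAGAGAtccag

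The 3 Calb2 probes are shown because their agreement with each other bears on the values below. They lie at chr8:108743456-108748935 (probe 1, across an intron), chr8:108743305-108743364 (probe 2) and chr8:108751135-108751194 (probe 3), and share no run longer than 7 bases. Each has 1 reading frame without a stop codon. In probe 3 the capitals mark the first codons of an EF-hand loop, the calcium-binding motif of this protein family.
Calb2 probe 1: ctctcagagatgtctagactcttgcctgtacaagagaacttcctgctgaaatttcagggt
Calb2 probe 2: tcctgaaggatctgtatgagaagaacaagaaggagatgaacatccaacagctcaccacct
Calb2 probe 3: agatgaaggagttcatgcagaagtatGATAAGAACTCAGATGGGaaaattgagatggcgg

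None of the 8 genes passed the test between PMCAO and sham at either time. The test was limma's moderated test on log2 ratios, 2 arrays per time, with the Benjamini-Hochberg adjusted p under 0.05. At 6 h 0 of 8 passed, against 0.853% of all genes tested (0.816% higher in PMCAO and 0.0366% lower). At 24 h 0 of 8 passed, against 12.4% of all genes (7.86% higher and 4.53% lower). Probe by probe, 0 of 13 tested probes passed at 6 h, where 0.625% of all probes did, and 0 of 13 at 24 h, where 9.92% did. At an unadjusted p under 0.05 the count was 0 genes at 6 h and 1 at 24 h, which was Cck. The share of all genes at this looser threshold was not counted. At 24 h it cannot be below the 12.4% that passed the adjusted test, so the count is no result about the 8 genes. The median log2 ratio of the 8 genes was 0.04 at 6 h and 0.06 at 24 h, beside medians of -0.0051 and 0.00083 over all genes. A gene that misses the threshold with 2 arrays is not thereby shown to be unaltered, and the 95% intervals below give the range of differences the arrays allow.

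**Figure D1:**
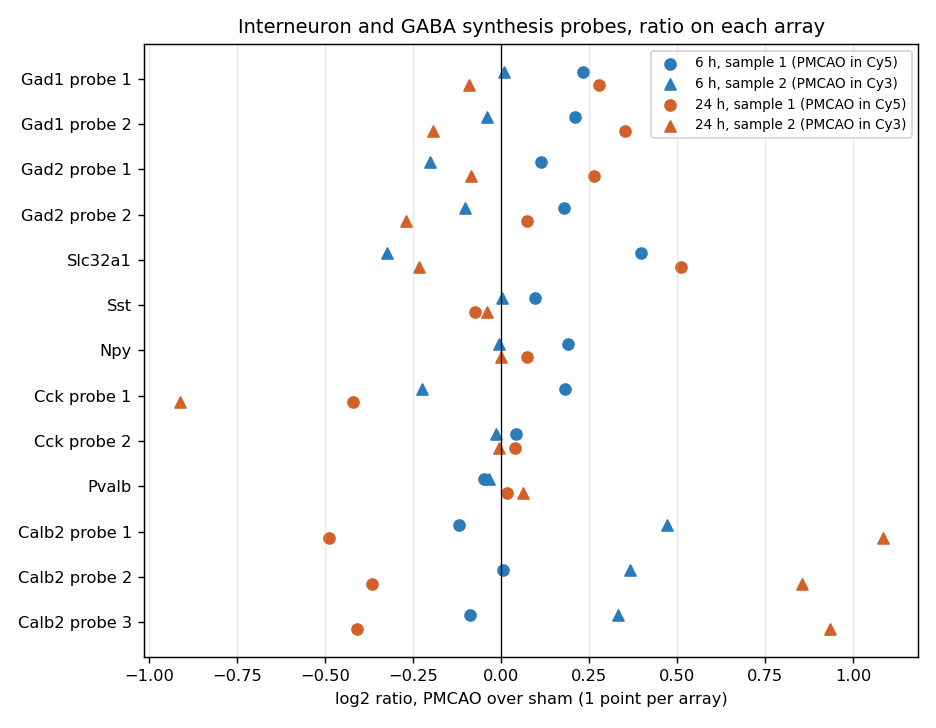
Log2 ratio of PMCAO over sham on each of the 4 arrays, for the 13 tested probes of the 8 genes; circles are sample 1 and triangles sample 2, blue is 6 h and orange 24 h. Cck probe 1 is the gene whose 2 arrays at 24 h both lie far below 0, at -0.42 and -0.91, while the Calb2 and Slc32a1 arrays lie on opposite sides of 0.

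Of the enzymes and transporter of GABA signalling, none of the 3 passed the test at either time. Gad1 encodes the larger, mostly cytosolic decarboxylase. Its ratio at 6 h was 0.23 in sample 1 and 0.01 in sample 2, and at 24 h 0.28 and -0.09. The mean log2 ratio was 0.12 ± 0.12 (SE, n = 2 arrays) at 6 h and 0.09 ± 0.12 at 24 h, with 95% intervals of -0.18 to 0.42 and -0.21 to 0.40. Sample 1 was the higher array at both times. A second Gad1 probe gave 0.21 and -0.04 at 6 h, and 0.35 and -0.20 at 24 h, the same split between samples. The remaining Gad1 probe, at chr2:70473646-70473705, was not well above background in any channel and was not tested. The 2 bright probes lie at chr2:70469090-70469149 and chr2:70468992-70469051. All 3 are listed from the higher to the lower coordinate although RefSeq has Gad1 on the plus strand, and 98.2% of the probes that could be matched are listed along their gene's RefSeq strand. Which strand the Gad1 probes read on mm7 was not tested.

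Gad2 encodes the smaller decarboxylase, which sits on synaptic vesicles. Its ratio at 6 h was 0.11 in sample 1 and -0.20 in sample 2, and at 24 h 0.26 and -0.09. The arrays took opposite signs at both times, and the means were -0.04 ± 0.13 at 6 h and 0.09 ± 0.13 at 24 h (SE, n = 2 arrays each). The second Gad2 probe had 0.18 and -0.10 at 6 h, and 0.07 and -0.27 at 24 h, so its mean at 24 h was -0.10, on the other side of 0 from that of the first. The probes lie at chr2:22678524-22678583 and chr2:22675289-22675347.

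Slc32a1 had the widest disagreement between arrays of the 3 GABA genes. Its ratio at 6 h was 0.40 in sample 1 and -0.33 in sample 2, and at 24 h 0.51 and -0.24, for its single probe at chr2:158356478-158356537. The sample with PMCAO in Cy5 was higher both times, and the channel labelled with Cy5 was the higher on all 4 arrays. The means were 0.04 ± 0.23 at 6 h and 0.14 ± 0.23 at 24 h (SE, n = 2 arrays each). Only 0.424% of genes were split at least as far between samples 1 and 2 at 6 h, and 3.58% at 24 h. Without sample 2 at 24 h the remaining array gave 0.51, and without sample 1 the remaining array gave -0.24.

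Among the peptides, the log2 ratios of Sst and Npy stayed within 0.19 of 0 on every array, and those of Cck at 24 h did not. Sst encodes somatostatin, the inhibitory peptide that names the dendrite-targeting class. Its ratio was 0.09 and 0.00043 at 6 h, and -0.08 and -0.04 at 24 h, in samples 1 and 2. The means were 0.05 ± 0.08 at 6 h and -0.06 ± 0.08 at 24 h (SE, n = 2 arrays each), with a 95% interval at 24 h of -0.26 to 0.15. The probe, at chr16:23547994-23548053, is printed in 10 places on the array, of which 8 to 9 were usable. The SD over those spots was between 0.015 and 0.024 on each array, and sample 1 minus sample 2 was 0.09 at 6 h and -0.03 at 24 h.

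Npy encodes neuropeptide Y, made by several interneuron classes. Its ratio was 0.19 and -0.0053 at 6 h, and 0.07 and -0.0011 at 24 h, in samples 1 and 2. The largest departure was thus 1 array at 6 h. The means were 0.09 ± 0.09 at 6 h and 0.04 ± 0.09 at 24 h (SE, n = 2 arrays each), with a 95% interval at 24 h of -0.19 to 0.26. Npy had the smallest p of the 8 genes at 6 h (unadjusted 0.353 and adjusted 0.975 in limma). The genes whose 4 ratios lay nearest to those of Npy by Euclidean distance were Dicer1 (0.0423), Nutf2 (0.044) and Mocs3 (0.0475), which stay as near 0 as Npy does.

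Cck encodes cholecystokinin, a peptide of basket interneurons that is also abundant in excitatory neurons of rodent cortex. Its ratio was 0.18 and -0.23 at 6 h, on either side of 0. At 24 h it was -0.42 in sample 1 and -0.91 in sample 2, both below 0. Sample 1, with PMCAO in Cy5, was the higher array both times, by 0.41 at 6 h and 0.49 at 24 h. At least as wide a split was found in 4.72% of genes at 6 h and 12% at 24 h. The levels at 24 h were 15.56 and 15.30 (log2 intensity) in PMCAO, against 15.99 and 16.21 in sham, and the groups did not overlap. The share of all genes whose groups did not overlap was not counted. The mean log2 ratio at 24 h was -0.67 ± 0.16 (SE, n = 2 arrays), a 1.59-fold lower level with a 95% interval of -1.06 to -0.28. The limma p was 0.00637 and the adjusted p over all genes 0.0508, just above the threshold. At 6 h the mean was -0.02 ± 0.16, with an adjusted p of 1.00.

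The Cck value passed the test under some other settings and missed it under others. The adjusted p at 24 h was 0.0322 from the processed signals and 0.0124 with 24 h fitted alone, which is the same test as with either 6 h array left out. Without sample 1 at 24 h the other array gave -0.91. Cck did not pass at 24 h under median centring (-0.85) or with the mean of the gene's probes (-0.33, adjusted p 0.106). It also missed the threshold without background correction (adjusted p 0.058) and with outlier spots kept (adjusted p 0.0514). The same held with no filter on dim probes (adjusted p 0.0551) and with a filter on all 8 channels (adjusted p 0.0546). A second Cck probe, at chr9:121196134-121196193, read 0.04 and -0.02 at 6 h and 0.04 and -0.01 at 24 h. It was well above background on 3 of 4 PMCAO channels and 1 of 4 sham channels, whereas the first probe, at chr9:121192651-121192710, was above background on all 8 channels. The nearest genes to Cck in the 4 ratios were Plcz1 (distance 0.0768) and the transcripts the files name TC1515419 (0.0938) and AK046811 (0.094).

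Of the calcium-binding proteins, Pvalb, the marker of fast-spiking interneurons, had the smallest standard error of the 8 genes. Its ratio was -0.05 and -0.04 at 6 h, and 0.02 and 0.06 at 24 h, for a probe at chr15:78274169-78274228. Samples 1 and 2 differed by less than 0.05 at each time. The means were -0.04 ± 0.08 at 6 h and 0.04 ± 0.08 at 24 h (SE, n = 2 arrays each), and the 95% interval at 24 h, -0.16 to 0.24, corresponds to between 0.895-fold and 1.18-fold.

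Calb2, which encodes calretinin, had the widest split between arrays of the 8 genes at 24 h, and the widest after Slc32a1 at 6 h. Probe 1 read -0.12 and 0.47 at 6 h, and -0.49 and 1.09 at 24 h, in samples 1 and 2. Probe 2 read 0.0039 and 0.36 at 6 h, and -0.37 and 0.86 at 24 h. Probe 3 read -0.09 and 0.33 at 6 h, and -0.41 and 0.93 at 24 h. The 3 probes, which share almost no sequence, thus gave the same split at both times: higher in PMCAO in sample 2, and lower or level in sample 1. Probe 2 is printed in 10 places, and the SD over its spots was between 0.027 and 0.045, far below the split.

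The level of Calb2 probe 1 at 24 h was 10.66 and 11.28 in PMCAO, against 11.14 and 10.19 in sham (log2 intensity, samples 1 and 2), so the groups overlapped. The channel labelled with Cy3 was the higher on all 4 arrays for this probe, whichever RNA it held. The mean log2 ratio was 0.17 ± 0.37 at 6 h and 0.30 ± 0.37 at 24 h (SE, n = 2 arrays each), with a 95% interval at 24 h of -0.62 to 1.21, the widest of the 8. Only 0.241% of genes were split between samples 1 and 2 at least as far at 24 h, and 1.04% at 6 h. The direction rested on the array used: without sample 1 at 24 h Calb2 read 1.09 (adjusted p 5.43e-09), and without sample 2 it read -0.49 (adjusted p 0.00848). Both adjusted p-values treat the lone array as varying like those of 6 h, and the part of dye in this split was not tested apart from the sample.

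**Figure D2:**
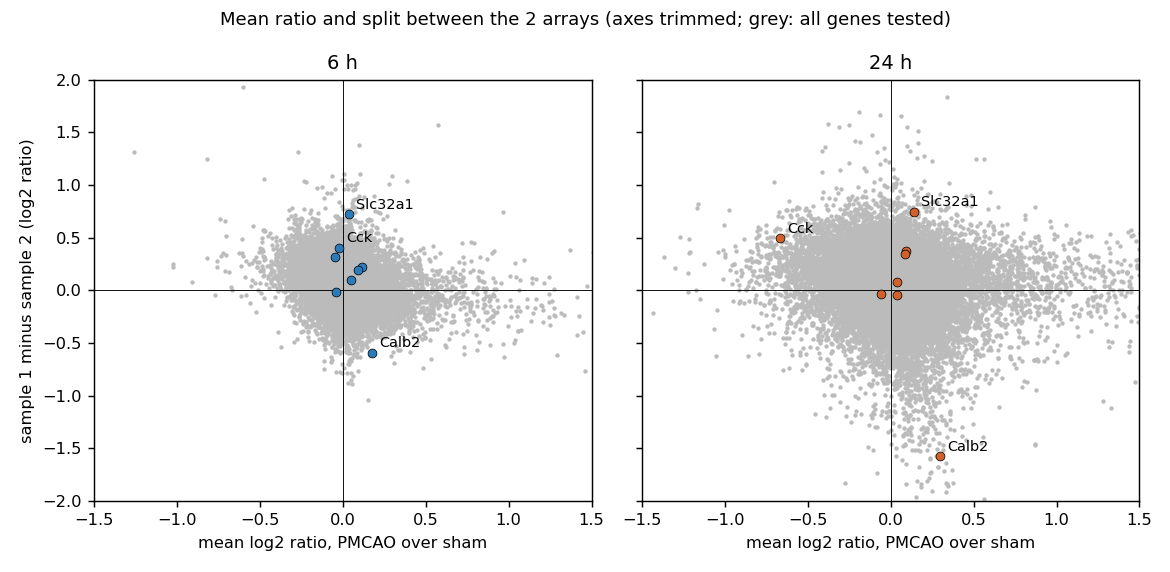
Mean log2 ratio of PMCAO over sham (x axis) against sample 1 minus sample 2 (y axis, log2 ratio) for all 19117 genes in grey and the 8 genes in colour, at 6 h on the left and 24 h on the right; 38 genes at 6 h and 202 at 24 h lie outside the axes drawn. Calb2 lies at a split of -1.57 at 24 h and Slc32a1 at 0.75, while Cck is the one of the 8 displaced to the left.

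The PMCAO over sham ratio was also compared between times. The test of 24 h minus 6 h called 0 of 8, against 1.61% of all genes. Cck had the largest difference, -0.64 ± 0.22 (SE, 4 arrays), with an unadjusted limma p of 0.0298 and an adjusted p of 0.273. Without sample 1 at 24 h the Cck difference was -0.89. The Calb2 difference took opposite signs without sample 1 and without sample 2 at 24 h. The other 6 differences lay between -0.11 and 0.13.

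Levels within each condition were compared between times with a fit to the separate channels. Within PMCAO, 4 of 8 genes passed between 24 h and 6 h, against 21.3% of all genes. Within sham, 0 of 8 passed, against 4.27% of all genes. Sst read 14.84 and 14.78 in PMCAO at 24 h, against 15.11 and 15.09 in PMCAO at 6 h, a difference of -0.29 ± 0.07 (adjusted p 0.0273). Npy read 12.44 and 12.31 at 24 h, against 12.71 and 12.62 at 6 h, a difference of -0.29 ± 0.08 (adjusted p 0.038). Both fell in PMCAO, and both had differences of the same sign in sham that missed the test, -0.19 for Sst (adjusted p 0.195) and -0.23 for Npy (adjusted p 0.144). The times did not overlap in sham either, but the share of all genes whose times did not overlap was not counted. Sst in sham read 14.91 and 14.82 at 24 h, against 15.01 and 15.09 at 6 h. Npy in sham read 12.36 and 12.32 at 24 h, against 12.52 and 12.62 at 6 h.

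Cck read 15.56 and 15.30 in PMCAO at 24 h, against 16.16 and 15.96 in PMCAO at 6 h, a difference of -0.63 ± 0.11 (adjusted p 0.00697). In sham the difference was 0.02 ± 0.11 (adjusted p 0.946). The first Gad2 probe rose in PMCAO, by 0.41 ± 0.10 (adjusted p 0.0268), and had 0.28 in sham (adjusted p 0.170). The second Gad2 probe went the other way, with -0.33 in PMCAO (adjusted p 0.0505 over all probes) and -0.19 in sham, so no direction holds for the gene. Without sample 1 at 6 h none of the 4 passed (adjusted p 0.0815 for Cck), and without sample 2 at 6 h Cck alone did. Without sample 2 at 24 h Cck and Gad2 passed, and Sst (0.0709) and Npy (0.123) did not. With no normalisation between arrays none passed (adjusted p 0.463 for Cck), and 124 of all genes did.

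**Figure D3:**
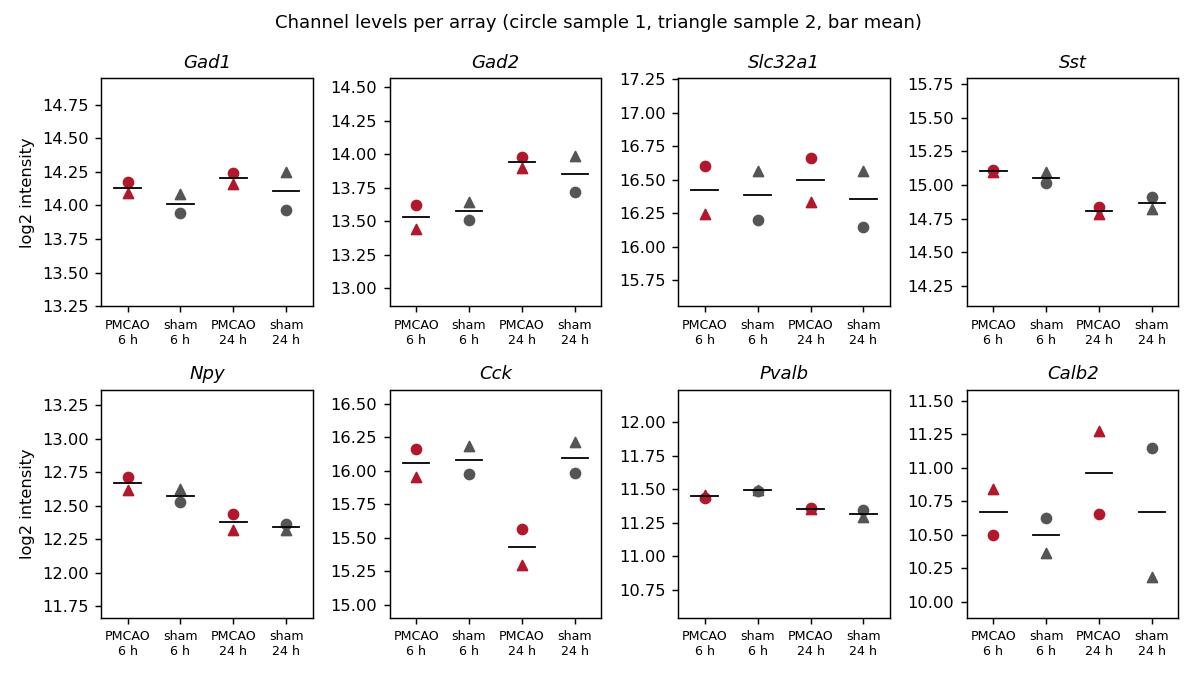
Normalised log2 intensity of each of the 8 genes (the probe that stands for the gene) in each channel, PMCAO in red and sham in grey, at 6 h and 24 h; circles are sample 1, triangles sample 2 and bars the mean of 2 channels, and every panel spans the same range of log2 units. Cck at 24 h is the panel in which both PMCAO channels, 15.56 and 15.30, lie below every other channel, and Calb2 the one in which channels of 1 group lie far apart.

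Genes around these 8 in the same pathways were counted in 5 further lists. At 6 h the lists held 1 gene past the test, the peptide neurotensin (Nts). At 24 h most of their calls were lower in PMCAO. The number higher and lower among all genes at 24 h depended on the scaling, with 1503 higher and 866 lower here and 1243 higher and 1165 lower with the processed signals. The counts below stand beside 7.86% of all genes higher and 4.53% lower at 24 h, and beside 0.816% higher and 0.0366% lower at 6 h, and are no test of a list.

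Of 23 other interneuron genes tested, 4 fell at 24 h and 0 rose, with a median of -0.18 and 18 of 23 below 0. Calb1, which encodes calbindin, read -0.62 and -0.76 in samples 1 and 2, a mean of -0.69 ± 0.09 (adjusted p 0.00905). Vip, the peptide of a disinhibitory interneuron class, read -0.43 and -0.70 (adjusted p 0.0291). Lamp5, a marker of neurogliaform cells, read -0.46 on both arrays (adjusted p 0.0307), and Cort, the somatostatin relative cortistatin, -0.53 and -0.35 (adjusted p 0.0356). The interneuron transcription factors Lhx6 (-0.18), Dlx1 (0.17) and Dlx2 (0.30) did not pass. At 6 h 0 of 23 passed, and Sox6 (-0.19, adjusted p 0.612) and Dlx2 (0.17, adjusted p 0.772) had the smallest p. With 24 h fitted alone, Cort (adjusted p 0.0761) and Lamp5 (adjusted p 0.0595) no longer passed. Lamp5 also missed the threshold at 24 h with the processed signals (adjusted p 0.0522) and with the deposited series table (adjusted p 0.0507).

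Of 16 genes of GABA uptake, breakdown and supply, 1 rose at 24 h and 0 fell, near the 7.86% of all genes that rose, with a median of 0.04. This was Slc6a12, the betaine and GABA transporter, at 1.82 and 1.28 in samples 1 and 2, a mean of 1.55 ± 0.14 (adjusted p 0.00289). Slc6a12 read 0.72 and 0.61 at 6 h, a mean of 0.67 that did not pass (adjusted p 0.169). At 6 h 0 of 16 passed, and Slc6a13, another GABA transporter, followed with -0.20 (adjusted p 0.601).

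Of 12 receptors and binding proteins of the 4 peptides, 2 fell at 24 h and 0 rose, and the median was -0.32 with 10 of 12 below 0. Cckbr, the main cholecystokinin receptor of the brain, read -0.53 and -0.82 (mean -0.67 ± 0.11, adjusted p 0.0167), beside the -0.42 and -0.91 of Cck itself. Sstr4, a somatostatin receptor, read -0.48 and -0.41 (mean -0.45 ± 0.09, adjusted p 0.0282). With either 6 h array left out its adjusted p was 0.0667, and with the mean of its probes the value was -0.22. The Npy receptors Npy1r (-0.45), Npy2r (-0.30) and Npy5r (-0.42) did not pass. Crhr1 (-0.34) and Crhbp (-0.04), a receptor and the binding protein of the peptide that had no probe, did not pass either. At 6 h 0 of 12 passed, and Sstr4 (-0.28, adjusted p 0.365) and Npy1r (-0.42, adjusted p 0.505) came nearest.

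Of 12 genes of peptide processing and dense-core vesicles, 2 fell at 24 h and 0 rose, with a median of 0.05. Cadps2, a priming factor of dense-core vesicles, read -0.67 and -0.95 (adjusted p 0.00793). Pcsk1, the convertase that cuts many peptide precursors, read -0.42 and -0.49 at 24 h (adjusted p 0.0243) and 0.53 and 0.58 at 6 h (adjusted p 0.0622). Its call at 24 h was lost with the mean of its probes (-0.17, adjusted p 0.443) and with 24 h fitted alone (adjusted p 0.0637). The difference 24 h minus 6 h was -1.68 with the mean of its probes, against -1.01 for the probe shown. The size of the Pcsk1 value at 6 h thus depended on the probe, and was larger for the mean. At 6 h 0 of 12 passed, and Scg2, a granin of dense-core vesicles, followed Pcsk1 with 0.33 (adjusted p 0.466).

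Of 18 other neuropeptides, 1 rose and 5 fell at 24 h, with a median of -0.02. Penk, the enkephalin precursor, read -0.53 and -1.09 (adjusted p 0.0275), and Adcyap1, the precursor of the peptide PACAP, -0.43 and -0.53 (adjusted p 0.0233). Tac1, the substance P precursor, read -0.48 and -0.35 (adjusted p 0.0415), and missed the threshold with 24 h fitted alone (adjusted p 0.0983). Tac1 also missed it with the processed signals (adjusted p 0.073) and with the deposited series table (adjusted p 0.0726). The other 2 that fell, Vip and Cort, are counted above as interneuron genes too. Avp, vasopressin, rose, at 0.51 and 0.61 (adjusted p 0.015). Nts rose at 6 h, at 0.88 and 0.94 (mean 0.91 ± 0.08, adjusted p 0.015), and read -0.06 and -0.12 at 24 h. The 6 h call of Nts rested on both arrays, with an adjusted p of 0.0592 without sample 1 and 0.115 without sample 2. The next smallest p at 6 h was that of Cartpt (0.39, adjusted p 0.36).

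**Figure D4:**
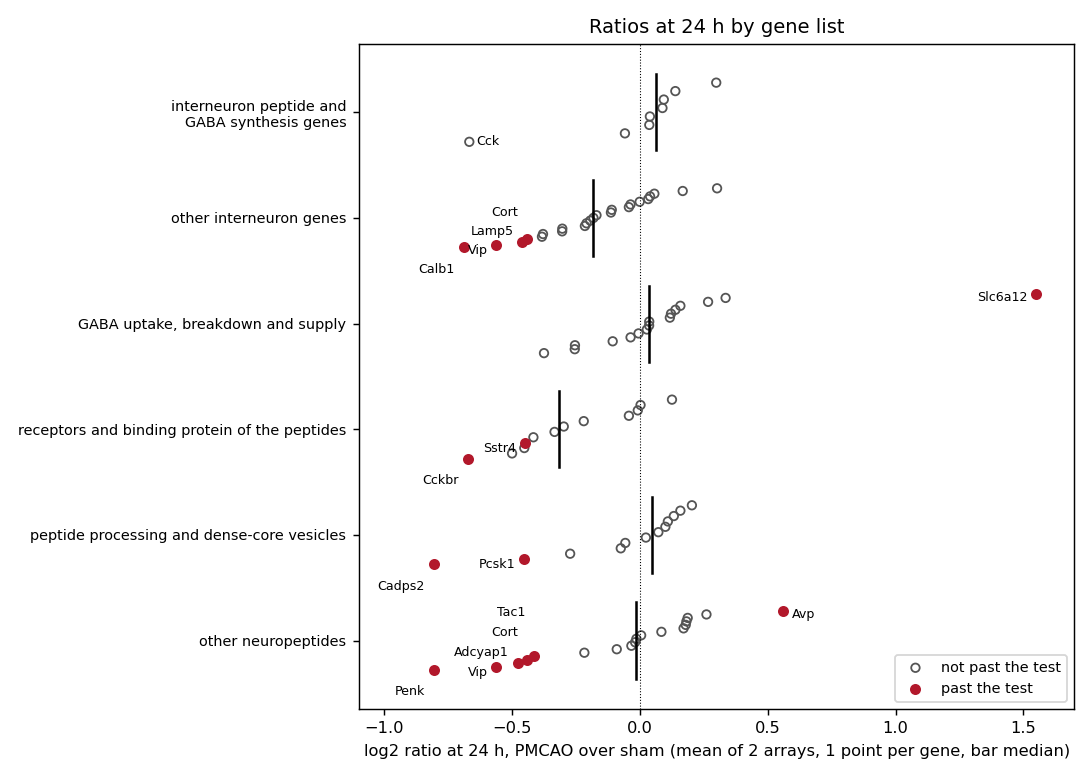
Mean log2 ratio of PMCAO over sham at 24 h (2 arrays) for each tested gene of the 8 described here and of 5 further lists, with filled points past the limma test at an adjusted p under 0.05 and a bar at each list's median. Cck lies at -0.67 without passing, level with the called Cckbr and Calb1, and the other 7 of its list lie between -0.06 and 0.30.

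Markers of other cells moved at 24 h beside these values. Of 8 markers of striatal projection neurons, which also use Gad1, Gad2 and Slc32a1, 7 fell, among them Adora2a (-1.06) and Drd1 (-0.62). The remaining marker, Ppp1r1b, read -0.63 and 1.29 in samples 1 and 2, a mean of 0.33 that did not pass. The summed level of the 8 was 13.56 and 13.74 in PMCAO, against 14.70 and 14.52 in sham (log2 intensity). Of 7 excitatory neuron markers 2 fell, among them Neurod6 (-0.94), with sums of 17.33 and 16.91 in PMCAO, against 17.43 and 17.48 in sham. Of 9 pan-neuronal markers 0 passed, with a median of -0.18 and sums of 17.84 and 17.94 in PMCAO, against 18.08 and 18.00 in sham. Of 6 neutrophil and monocyte markers 5 rose, led by S100a9 (5.84) and S100a8 (5.27), with sums of 15.96 and 16.21 in PMCAO, against 10.60 and 10.84 in sham. Of 6 microglia markers 3 fell, among them P2ry12 (-1.72) and Gpr34 (-1.37), with sums of 14.86 and 14.73 in PMCAO, against 14.95 and 15.07 in sham. Of 7 astrocyte markers 4 rose, led by Gfap (1.25), with sums of 17.14 and 16.83 in PMCAO, against 16.96 and 17.18 in sham. The other 3 lay below 0 without passing, Slc1a2 at -0.41, Aqp4 at -0.22 and Slc1a3 at -0.01. Of 5 endothelial markers 2 rose, Cdh5 (1.45) and Pecam1 (0.93), with sums of 14.85 and 15.07 in PMCAO, against 14.66 and 14.43 in sham. Tek, the only endothelial marker below 0, read -0.52 and just missed the limma test (adjusted p 0.0516). Of 6 pituitary markers 1 rose, Prl (1.04), which was well above background on 2 of 4 PMCAO and 2 of 4 sham channels. The pituitary sums were 11.32 and 11.15 in PMCAO, against 11.13 and 11.21 in sham. Of 6 oligodendrocyte and 4 choroid plexus markers 0 passed, and of 4 cerebellar markers 1 fell, Calb1. The part of these cell types in the values of Cck, and of called genes such as Slc6a12 and Avp, was not tested.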

How the data were processed

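Two-colour Agilent mouse arrays of brain RNA were used, 4 in all on 1 slide. Per the file headers, the authors scanned and extracted the spots with Agilent Feature Extraction, version 9.5.3.1 per the submitters' processing notes. The deposited files hold the mean intensity and local background of each spot per dye, processed signals, flags and a log10 ratio, which was not used. A deposited series table holds a signed ratio score per spot whose making is not stated. It was used without its sign as an alternative, since its size followed the processed Cy5 over Cy3 ratio. Probe positions are on mm7 per the file headers.

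Background was corrected with normexp (offset 50), each array was loess-normalised with control spots at weight 0, outlier spots were left out, and every log2 ratio was given the direction PMCAO over sham. Each probe took the average of its spots, and each gene its probe of highest mean intensity. The filter kept the 19127 genes whose signal exceeded background, by the scanner's flag, on both arrays in 1 or more of the 4 RNA groups; 10 of these had a missing spot and were left out. Names came from transcript accessions or symbols matched to RefSeq (GRCm38.p6) for 32719 of 41174 probes, and otherwise from the files. Ratios were fitted with limma 3.58.1 in R 4.3.3 (1 coefficient per time, residual degrees of freedom 2, prior 3.54) with Benjamini-Hochberg adjustment over all genes. Levels between times came from limma's separate-channel fit after Aquantile normalisation (intraspot correlation -0.411, or 0.749 with dye as a term). The fits were tested on simulated data. With 2 arrays per time, the number of arrays limits the precision.

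The genes and lists were chosen with earlier results of these data known. Named genes were every probe of the 9 genes, list members past the test, the 2 per list of smallest p at either time, and the 3 genes nearest in pattern to Npy and to Cck, the genes of smallest p at 6 h and 24 h. Lhx6, Dlx1, Dlx2 and the Npy, Crh and marker genes named beyond this were chosen after their values were seen. Alternatives covered signal source, centring, background, filters, probe choice, a replicate block, dye as a term, normalisation between arrays, times fitted alone and each array left out. A few list genes that this rule would name are not reported here.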

Additional observations from a re-analysis of the deposited data

Results flagged for a closer look

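Of the 86 genes tested in the 6 lists, 13 had ratios of opposite sign at the 2 times on every array. The share of all genes with this pattern was not counted, so the 13 are no result about the lists. For the difference of the PMCAO over sham log2 ratio, 24 h minus 6 h, 1.61% of all genes passed limma's test. In 2 of the 13 that difference also passed: Pcsk1 (-1.01, adjusted p 0.0236) and Nts (-1.00005, adjusted p 0.0239). Without sample 1 at 6 h their adjusted p-values were 0.0763 and 0.0804, and without sample 2 at 6 h 0.102 and 0.104, all above the threshold. Averaged over its probes, the Pcsk1 difference was -1.68 in place of -1.01. The difference missed the threshold for Cadps2 (-0.86, adjusted p 0.0602), Adcyap1 (-0.65, adjusted p 0.0774), Cartpt (-0.60), Crhr1 (-0.45), Cadps (-0.32), Slc6a13 (0.24), Pcsk1n (0.21), Crhbp (-0.18) and Scg3 (0.080). Of the interneuron genes themselves, Sst (-0.11, adjusted p 0.80) and Pvalb (0.081, adjusted p 0.851) had the same pattern at values near 0, and the 6 h value of Sst in sample 2 was only 0.00043.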

How the results depend on the processing

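Of 575 values of single genes under other settings, 468 kept their direction and their side of the threshold, 63 no longer passed, 19 newly passed and 25 changed sign. The count of the 8 genes past the test at 6 h was 0 under every setting run. At 24 h it was 1, Cck, with the processed signals, the deposited series table and each time fitted alone, and the count over probes was 1 under the same 3 settings. With an array left out, the count ranged from 1 to 3 genes and 1 to 4 probes at 24 h, from 0 to 2 genes for the difference between times, from 0 to 1 for sham between times and from 0 to 5 for PMCAO between times. More of all genes also passed at 24 h, and for the difference between times, when a 24 h array was left out. The higher counts under those fits are thus no result about the 8 genes in particular. With no normalisation between arrays the count for PMCAO between times was 0. With the sample number as a replicate block, 1 gene passed at 24 h, for the difference and for PMCAO between times, and 1 probe passed, Cck each time (adjusted p 4.14e-05 at 24 h, 0.00138 for the difference and 0.0491 for PMCAO between times). Of all 19117 genes, 7595 passed with this block at 24 h and 3215 for the difference. Over all probes there were 12611 calls at the 2 times together. Under the block Sst (adjusted p 0.25), Npy (0.228) and Gad2 (0.184) no longer passed in PMCAO between times. The differences between times of Cadps2 (0.000336) and Adcyap1 (0.00125) newly passed under it. With dye as a term in the separate-channel fit the intraspot correlation was 0.749 in place of -0.411, and Sst, Npy, Cck and Gad2 passed in PMCAO between times, the same 4 as without it. The labels give no shared batch for these numbers, and over genes the split between samples at 6 h correlated with that at 24 h at r = 0.718; the number is also the dye orientation. Signs changed mostly for values near 0. With the processed signals Npy at 24 h was -0.0019 and Pvalb -0.023, and with the series table Npy was 0 and Pvalb -0.022. Median centring, which called 0 genes of all at 6 h and 13 at 24 h, gave 0.0845 for Cck and 0.0293 for Gad2 at 6 h. At 24 h it gave -0.13 for Npy, -0.11 for Pvalb, -0.0900 for Gad1, -0.0924 for Gad2 and -0.0510 for Slc32a1, and -0.10 for Pvalb between times. The mean over probes gave -0.0060 for Gad2 at 24 h. With an array left out at 6 h, Npy ranged from -0.0053 to 0.19, Cck from -0.23 to 0.18, Calb2 from -0.12 to 0.47, Gad2 from -0.20 to 0.11 and Slc32a1 from -0.33 to 0.40. At 24 h Npy ranged from -0.0011 to 0.0737, Calb2 from -0.49 to 1.09, Gad1 from -0.0918 to 0.28, Gad2 from -0.0869 to 0.26 and Slc32a1 from -0.24 to 0.51. Cck in sham between times ranged from -0.0945 to 0.13. With 1 array left at a time, its value is that array's own, and it is assumed to vary like the other time. The cause of the other changes was not tested. Signal over background limited the second Cck probe, the Gad1 probe that was not tested and, in the lists, Chodl and Npy4r, which were not tested, and Sstr3.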
